A study of Homo sapiens with 6 samples.

Results

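The genes described here are 10 inflammatory chemokines and cytokines: the chemokines CCL2, CCL5, CCL20, CXCL8 and CXCL10, the interleukin 1 family members IL1B and IL1RN, the TNF family members TNF and TNFSF13B, and the secreted phosphoprotein SPP1 (osteopontin). They were taken by name from 2 gene count tables that together list 13289 genes. Of the 10, 7 had a row in both tables, CXCL10 had a row in the ATRA table alone, and CXCL8 and TNF had no row in either and were not analysed here. The counts came from RNA-seq of NB4, a line of human promyelocytic leukemia cells that carries the PML-RARA fusion. All-trans retinoic acid (ATRA) drives such cells to mature along the granulocyte lineage. The groups were NB4 cells with 1 of 2 short hairpins against SMARCD2 in ATRA at 1 µM (2 libraries, hairpin 1 and hairpin 2), the control construct in ATRA (1 library), the 2 hairpins in DMSO, the vehicle (2 libraries), and the control construct in DMSO (1 library). SMARCD2 belongs to the SWI/SNF (BAF) complex, which remodels chromatin. Every construct was thus present as 1 library per treatment, no source used here gives the length of treatment, and nothing in the labels says that the libraries of a group came from separate cultures, so p-values measure only the spread between these libraries.

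Chemokines are small secreted proteins that draw leukocytes along a gradient by binding G protein-coupled receptors on them. IL1B and TNF are secreted or shed cytokines that act through receptors leading to NF-kB and AP-1, and IL1RN is the antagonist that occupies the interleukin 1 receptor without signalling. Neutrophils and monocytes are known as sources of several of these proteins once they mature or meet microbial products, and maturing myeloid cells also supply TNFSF13B (BAFF), a survival factor for B cells. Osteopontin is a secreted ligand of integrins and CD44.

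Promoter sequences of the members are shown because the members tested changed under ATRA and because these cytokine genes are textbook targets of NF-kB, AP-1, C/EBP and interferon-regulated factors. RefSeq promoter entries (GRCh38.p14, 250 bases before to 50 bases after the start) matched 8 members, and none is shown for CCL2 or CCL5. Capitals mark matches, on either strand, to the NF-kB consensus, the AP-1 site TGACTCA, the C/EBP site TTNNGCAA, the interferon-stimulated element ISRE (GAAA, any 2 bases, GAAA) or the retinoic acid receptor repeat DR5 (AGGTCA, any 5 bases, AGGTCA). Of the 2 members with the steepest ATRA response among those with an entry, IL1B had a C/EBP match at −215 to −208 from its start and SPP1 had none of the 5 motifs. CXCL10 and CCL20 are shown because they were the members with an NF-kB match.
IL1B, chr2:112836730-112837029, minus strand: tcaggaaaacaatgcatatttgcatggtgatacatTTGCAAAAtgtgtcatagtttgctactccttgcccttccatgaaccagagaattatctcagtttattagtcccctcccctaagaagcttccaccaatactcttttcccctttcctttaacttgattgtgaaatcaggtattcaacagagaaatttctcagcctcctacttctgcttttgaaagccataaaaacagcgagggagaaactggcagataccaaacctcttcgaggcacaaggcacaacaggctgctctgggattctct
SPP1, chr4:87975464-87975763, plus strand: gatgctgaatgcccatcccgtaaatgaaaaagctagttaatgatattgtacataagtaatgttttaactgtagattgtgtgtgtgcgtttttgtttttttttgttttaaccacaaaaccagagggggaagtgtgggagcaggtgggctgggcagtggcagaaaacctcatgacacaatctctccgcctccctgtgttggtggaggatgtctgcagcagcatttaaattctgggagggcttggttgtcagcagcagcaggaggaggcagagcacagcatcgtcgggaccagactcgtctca
CXCL10, chr4:76023448-76023747, minus strand: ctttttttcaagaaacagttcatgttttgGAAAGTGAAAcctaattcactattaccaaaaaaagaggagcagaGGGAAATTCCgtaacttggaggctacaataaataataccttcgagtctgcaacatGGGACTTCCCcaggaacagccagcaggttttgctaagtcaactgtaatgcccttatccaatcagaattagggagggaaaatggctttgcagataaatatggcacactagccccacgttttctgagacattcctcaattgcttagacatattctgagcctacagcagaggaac
CCL20, chr2:227813592-227813891, plus strand: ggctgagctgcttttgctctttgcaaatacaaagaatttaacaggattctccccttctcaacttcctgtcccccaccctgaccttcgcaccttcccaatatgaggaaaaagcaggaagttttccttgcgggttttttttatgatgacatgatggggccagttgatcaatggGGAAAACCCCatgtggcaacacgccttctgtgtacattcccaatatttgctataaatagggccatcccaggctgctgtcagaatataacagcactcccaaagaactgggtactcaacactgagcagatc
CXCL10 held 2 NF-kB matches, the nearer of which reads as a match on both strands, and 1 ISRE match. CCL20 held 1 NF-kB match, at −79 to −70 from the start. IL1RN had 3 entries, 1 with an AP-1 match and 2 overlapping ones that share an ISRE match. Both TNFSF13B entries, which overlap, held an ISRE and a C/EBP match, CXCL8 held an AP-1 match and TNF held none. Over all 35116 promoters of this length, an NF-kB match was present in 11.3%, AP-1 in 4.95%, C/EBP in 10.5%, ISRE in 3.57% and DR5 in 0.0057%. A match is a description of letters in this window and not a bound site.

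The libraries held between 29291209 and 58099733 counts. Levels are in CPM, counts scaled to the TMM-adjusted library size, and are compared between libraries, not between genes, because no transcript length enters them. SMARCD2, the gene aimed at by the hairpins, stood in ATRA at 64.2 CPM with hairpin 1 and 35.6 with hairpin 2, against 122 with the control, and in DMSO at 39.0 and 25.7, against 95.5. Its level was below the control with both hairpins in both treatments (log2 fold change −1.29 ± 0.31 in ATRA, edgeR adjusted p = 0.321, and −1.55 ± 0.32 in DMSO, adjusted p = 0.393) and was not called in either, with hairpins that differed from each other. With the construct as a block the adjusted p was 1.17e-07 in ATRA and 1.8e-08 in DMSO. Between the hairpins, SMARCD2 was called lower with hairpin 2 (log2 fold change −0.73 ± 0.07 (SE), edgeR adjusted p = 3e-06). Of 8 promyelocyte and neutrophil markers, 7 were listed in both tables. ELANE, the neutrophil elastase gene, was listed in the DMSO table alone, at 0.083, 0.615 and 0.325 CPM with hairpin 1, hairpin 2 and the control, so this defining promyelocyte marker was near 0. Each library had 2 raw count columns, taken here as sequencing runs 1 and 2, although the column headers do not say so. Run 1 supplied between 70.6% and 80.7% of the counts of the 4 hairpin libraries. It supplied 53.1% of the control in ATRA and 54.6% of the control in DMSO, so the mix of runs differed between hairpin and control libraries. Between the 2 columns of a library the chi-squared statistic per degree of freedom was 5.04 to 6.73, more than counting error alone gives.

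ATRA against DMSO asked which transcripts changed when the leukemia cells were driven to mature. Of the 7 members in both tables, 5 rose and 2 fell (edgeR's quasi-likelihood test over 12301 genes, Benjamini-Hochberg adjusted p under 0.05). Among all genes tested, 36.2% rose and 37.8% fell, 74% in all, so being called is itself common in this comparison and the size of the change is what is described. The median log2 fold change was 3.06 over the 7 members and −0.01 over all genes. Scaling by total counts moved the median of all genes to −0.14 and the split of calls over all genes to 3637 higher and 5722 lower, in place of 4450 higher and 4650 lower. The members' calls were 5 higher and 2 lower under that scaling too. In bulk RNA, fewer cells of a type and less RNA per cell cannot be told apart.

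**Figure D1:**
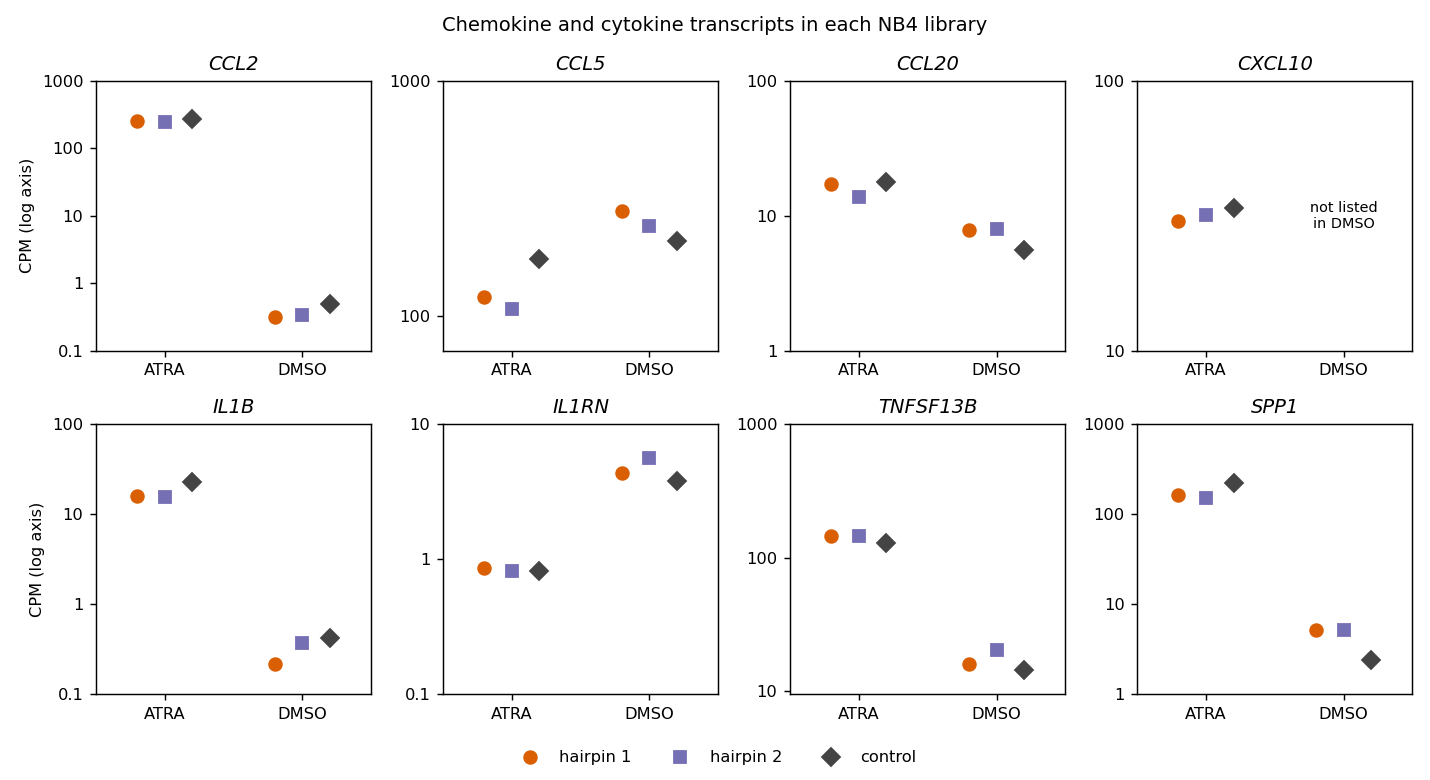
Level of each listed member (CPM, log axis, a separate range per panel) in ATRA and DMSO, with 1 point per library: circles for hairpin 1, squares for hairpin 2 and diamonds for the control construct. CCL2, IL1B, SPP1, TNFSF13B and CCL20 are higher in all 3 ATRA libraries, CCL5 and IL1RN are higher in all 3 DMSO libraries, and CXCL10 has no DMSO value.

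CCL2, the monocyte-attracting chemokine MCP-1, showed the largest change of the 7. It stood in ATRA at 257 CPM with hairpin 1, 243 with hairpin 2 and 274 with the control, against 0.315, 0.342 and 0.487 CPM in DMSO. The 2 treatments were far apart with every construct, and the 3 ATRA libraries were close to each other. The DMSO values rest on 19, 15 and 15 counts, with exact Poisson 95% intervals of 0.190 to 0.492, 0.191 to 0.564 and 0.272 to 0.803 CPM that cover counting error only. CCL2 was 815-fold higher in ATRA with hairpin 1, 711-fold with hairpin 2 and 562-fold with the control, and over the constructs its log2 fold change was 9.44 ± 0.09 (SE, adjusted p = 1.49e-10).

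CCL20, the ligand of CCR6, rose less. It stood in ATRA at 17.3, 13.9 and 17.9 CPM with hairpin 1, hairpin 2 and the control, against 7.83, 7.95 and 5.61 CPM in DMSO. All 3 ATRA libraries lay above all 3 DMSO libraries, as they did for 37.6% of all genes. The rise was 2.21-fold and 1.75-fold with the hairpins and 3.19-fold with the control (log2 fold change 1.19 ± 0.15, edgeR adjusted p = 1.29e-04).

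CCL5 (RANTES), a chemokine for T cells, monocytes and eosinophils, ran the other way. It stood in ATRA at 121, 107 and 174 CPM with hairpin 1, hairpin 2 and the control, against 281, 242 and 209 CPM in DMSO. All 3 ATRA libraries lay below all 3 DMSO libraries, as they did for 39.5% of all genes, but the control libraries were much nearer to each other than those of the hairpins. CCL5 was 2.32-fold and 2.26-fold higher in DMSO with the hairpins and 1.20-fold with the control, and it fell over the constructs by 0.89 on the log2 scale (SE 0.17, edgeR adjusted p = 0.00145). In the hairpin libraries alone it fell by 1.20 (SE 0.09, edgeR adjusted p = 8.71e-06), in a comparison where 35.4% of all genes fell.

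CXCL10 (IP-10), an interferon-induced ligand of CXCR3, was listed in the ATRA table alone, at 30.3, 32.0 and 33.9 CPM with hairpin 1, hairpin 2 and the control. The 3 libraries lay close together. The smallest total of any gene listed in the DMSO table was 22 counts over its 3 libraries, but the filter behind the table is not stated, so no DMSO value or fold is given for CXCL10.

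IL1B, the inflammatory cytokine interleukin 1 beta, stood in ATRA at 15.9, 15.4 and 22.5 CPM with hairpin 1, hairpin 2 and the control, against 0.216, 0.365 and 0.422 CPM in DMSO. The treatments did not overlap, and the DMSO libraries held only 13, 16 and 13 counts. IL1B was 73.9-fold and 42.1-fold higher in ATRA with the hairpins and 53.3-fold with the control (log2 fold change 5.77 ± 0.16, edgeR adjusted p = 1.49e-08).

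IL1RN, which encodes the antagonist of the receptor that IL1B uses, fell. With hairpin 1, hairpin 2 and the control it stood in ATRA at 0.862, 0.819 and 0.815 CPM (42, 35 and 23 counts), against 4.38, 5.61 and 3.76 CPM in DMSO (264, 246 and 116 counts). The treatments did not overlap, and the ATRA libraries were nearly equal. IL1RN was 5.08-fold and 6.84-fold higher in DMSO with the hairpins and 4.62-fold with the control, and it fell by 2.46 on the log2 scale (SE 0.19, edgeR adjusted p = 5.4e-06). The agonist and its antagonist thus moved in opposite directions with each of the 3 constructs.

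TNFSF13B, the B cell survival factor BAFF, stood in ATRA at 145, 144 and 128 CPM with hairpin 1, hairpin 2 and the control, against 15.9, 20.2 and 14.3 CPM in DMSO. The libraries of each treatment lay near each other and the treatments did not overlap. The rise was 9.17-fold and 7.16-fold with the hairpins and 8.99-fold with the control (log2 fold change 3.06 ± 0.09, edgeR adjusted p = 1.62e-08).

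SPP1, the matricellular protein osteopontin, stood in ATRA at 165, 153 and 220 CPM with hairpin 1, hairpin 2 and the control, against 5.09, 5.20 and 2.40 CPM in DMSO. The treatments did not overlap, but the control library was the highest of the 3 in ATRA and the lowest of the 3 in DMSO. SPP1 was 32.4-fold and 29.4-fold higher in ATRA with the hairpins and 91.5-fold with the control (log2 fold change over the constructs 5.32 ± 0.23, edgeR adjusted p = 1.54e-07).

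The receptors of these ligands were measured in the same libraries. Receptor means and SDs are over the 3 libraries of a treatment, 2 with hairpins and 1 with the control. The SD thus includes any difference between the constructs and is not a spread of replicates. Of 25 receptor genes looked for, 14 were in both tables and 7 had no row in either. Of the 14, 9 rose, 3 fell and 2 were not called in ATRA against DMSO, where 36.2% of all genes rose and 37.8% fell. Among the CCL5 receptors tested, CCR3 averaged 118 ± 7.62 CPM in ATRA and 12.7 ± 1.61 CPM in DMSO (SD, n = 3 each; log2 fold change 3.22 ± 0.08) and CCR1 averaged 91.8 ± 6.68 CPM in ATRA and 10.6 ± 1.28 CPM in DMSO (3.12 ± 0.07), so both rose while CCL5 fell.

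CCR2, the receptor of CCL2, ran against its ligand: it averaged 1.23 ± 0.59 CPM in ATRA and 2.75 ± 0.38 CPM in DMSO (SD, n = 3 each), and it fell by 1.16 on the log2 scale (SE 0.27, edgeR adjusted p = 0.00448). CCR6, the receptor of CCL20, fell by 0.25 (SE 0.04), with a mean of 110 ± 1.21 CPM in ATRA and 131 ± 2.49 CPM in DMSO. CXCR3, the receptor of CXCL10, was listed in the DMSO table alone, at 0.680, 0.615 and 0.454 CPM, whereas its ligand was listed in the ATRA table alone. CXCR2, a receptor of CXCL8, was listed in the ATRA table alone, at 27.8, 25.2 and 24.8 CPM.

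On the interleukin 1 side, IL1RAP, the accessory chain that a signalling IL-1 receptor needs, rose to 122 ± 12.2 CPM in ATRA, against 32.6 ± 2.93 CPM in DMSO (SD, n = 3 each; log2 fold change 1.90 ± 0.07), whereas IL1R1, the ligand-binding chain, averaged 1.78 ± 0.63 CPM in ATRA and 1.47 ± 0.41 CPM in DMSO and was not called. TNFRSF1B (TNF receptor 2) rose to 282 ± 25.2 CPM in ATRA, against 40.1 ± 4.66 CPM in DMSO (2.81 ± 0.10), and TNFRSF1A rose by 0.58 ± 0.05. TNFRSF13C, the BAFF receptor, fell by 1.80 (SE 0.26) to 0.607 ± 0.214 CPM in ATRA, against 2.17 ± 0.117 CPM in DMSO. Of the osteopontin receptors, ITGB3 rose by 2.05 ± 0.19, CD44 by 0.65 ± 0.06, ITGB1 by 0.27 ± 0.05 and ITGAV by 0.17 ± 0.06, while ITGA4 was not called.

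Other genes of the same pathways came from 5 further lists, to be read beside the 36.2% of all genes that rose and the 37.8% that fell. IL-1 and TNF processing genes rose in 10 of 11 tested with none lower (median log2 fold change 0.81). Among them NLRC4, an inflammasome sensor, rose by 3.95 ± 0.07, CASP1, the protease that cleaves pro-IL1B, by 2.39 ± 0.07, and RHBDF2 (iRhom2), which carries the TNF-shedding protease ADAM17 to the surface, by 2.20 ± 0.06. The exception was the protease gene FURIN (0.02 ± 0.05). AIM2 and CASP5, further inflammasome genes, were listed in the ATRA table alone.

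NF-kB and AP-1 pathway genes rose in 21 of 30 tested and fell in 5 (median 0.47), against 36.2% higher and 37.8% lower over all genes. MYD88, the adaptor below the IL-1 receptor, rose by 3.09 ± 0.05, NFKBIZ by 2.52 ± 0.10 and BCL3 by 2.47 ± 0.24, the last 2 being nuclear members of the IkB family. The 5 that fell, named after their values were seen, were the AP-1 genes JUN and FOSL1 and the signalling genes TRAF2, NFKBIB and IRAK3. IRF and STAT pathway genes rose in 8 of 12 and fell in 1, IRF8 (median 1.26), with IRF1 at 2.85 ± 0.06, STAT2 at 2.63 ± 0.07 and the cytokine signalling inhibitor SOCS3 at 2.42 ± 0.18. Under scaling by total counts the counts were 19 higher and 6 lower for the NF-kB and AP-1 list, and no called gene of these lists changed sign.

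Other cytokine genes rose in 8 of 16 tested and fell in 5 (median 0.41), a mixed pattern. Over all genes 36.2% rose and 37.8% fell, so these calls, and the calls among the 5 other chemokines tested below, are not set apart from all genes. CSF1, the macrophage growth factor, rose by 3.73 ± 0.12, EBI3, a subunit of IL-27 and IL-35, by 3.67 ± 0.18, and TNFSF9 (4-1BB ligand) by 3.24 ± 0.13. The 5 that fell, named after their values were seen, were HGF, TNFSF14, IL32, OSM and MIF. Of 33 other chemokine genes, 5 were in both tables, where CCL3 (3.04 ± 0.20) and CXCL16 (2.23 ± 0.18) rose. A further 8 were listed in the ATRA table alone and 0 in the DMSO table alone. Over all 13289 genes, 537 were listed in the ATRA table alone and 451 in the DMSO table alone, by filters that are not stated. The 8 chemokine genes of the ATRA table alone were CCL4, CCL7, CCL22, CCL23, CCL24, CXCL3, CXCL6 and CXCL11. CCL24 stood there at 28.6, 33.1 and 22.6 CPM and CCL22 at 12.8, 17.2 and 8.90 CPM with hairpin 1, hairpin 2 and the control. CCL3 and CCL4 have near-identical copies, and CCL3L3 (0.02 ± 0.06) and CCL4L2 (0.17 ± 0.08) were not called, so how reads were divided between the copies makes these values uncertain.

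**Figure D2:**
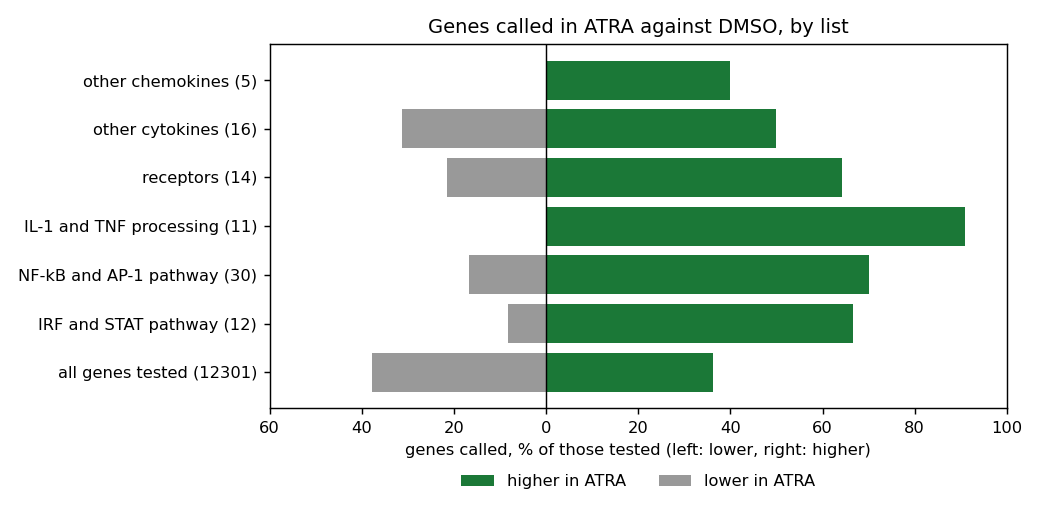
Share of tested genes called in ATRA against DMSO (% of the tested genes named in parentheses, edgeR adjusted p under 0.05), with green bars to the right for genes higher in ATRA and grey bars to the left for genes lower. IL-1 and TNF processing genes have 10 of 11 higher and none lower, against 36.2% higher and 37.8% lower over all genes.

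Markers of other cells moved with ATRA in both directions, as did all genes tested (36.2% higher and 37.8% lower). Of 10 monocyte and macrophage markers, 5 were in both tables, 3 of which rose and 2 fell, and 3, among them CD14, were listed in the ATRA table alone. Their summed level ran from 358 to 361 CPM in ATRA and from 358 to 387 CPM in DMSO, with CX3CR1 higher by 6.13 ± 0.22 and MS4A7 lower at −3.63 ± 0.18, and CD163 and VCAN had no row. Of 8 promyelocyte and neutrophil markers, 7 were in both tables, 3 of which rose and 3 fell. CEBPE, a granulocyte transcription factor, rose by 3.45 ± 0.09, PRTN3 by 2.58 ± 0.12 and CD33 by 0.23 ± 0.06, whereas the granule protein genes CTSG (−4.07 ± 0.17), MPO (−0.97 ± 0.08) and AZU1 (−0.97 ± 0.07) fell. LYZ was not called, and ELANE was listed in the DMSO table alone. The summed level of this mixed list ran from 5148 to 6830 CPM in ATRA and from 10255 to 10492 CPM in DMSO. The 6 lymphoid markers with a row of 9 summed to 106 to 114 CPM in ATRA and 49.4 to 57.7 CPM in DMSO, and MS4A1, CD2 and IL7R had no row. Among those with a row, CD79A (4.94 ± 0.12) and NKG7 (1.58 ± 0.08) rose, and CD79B (−4.39 ± 0.16) and CD3D (−1.14 ± 0.18) fell. The part of any change in cell makeup in the members' values was not tested.

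SMARCD2 knockdown against control asked whether loss of this BAF subunit changed these transcripts within a treatment. In ATRA, no member was called by edgeR. Over all 12301 genes 1 was called, the glycolytic enzyme gene ENO2, which was lower with the hairpins (0.00813%), and 1329 genes, 10.8%, had an unadjusted p under 0.05. DESeq2 called 52 genes there and limma-voom 1. In DMSO edgeR called 0 genes (0%), 868 genes (7.06%) had an unadjusted p under 0.05, DESeq2 called 38 and limma-voom called 0.

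In ATRA both hairpins lay below the control for 6 of the 8 listed members (CCL2, CCL5, CCL20, CXCL10, IL1B and SPP1) and above it for IL1RN and TNFSF13B. Over all genes of that table both hairpins lay below in 37.4% and above in 39.2%. For IL1RN the ATRA libraries were nearly equal (0.862 and 0.819 CPM with the hairpins, 0.815 CPM with the control), and their Poisson 95% intervals overlapped. In DMSO both lay above the control for 5 of 7 (CCL5, CCL20, IL1RN, TNFSF13B and SPP1) and below it for CCL2 and IL1B, against 34.7% above and 35.1% below over all genes. CCL5, CCL20 and SPP1 were below the control in ATRA and above it in DMSO with both hairpins, 3 of 7 members, a pattern of 12.5% of all genes. For CCL20 in ATRA, however, the Poisson 95% interval with hairpin 1 (16.15 to 18.5 CPM) overlapped that of the control (16.4 to 19.5 CPM).

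**Figure D3:**
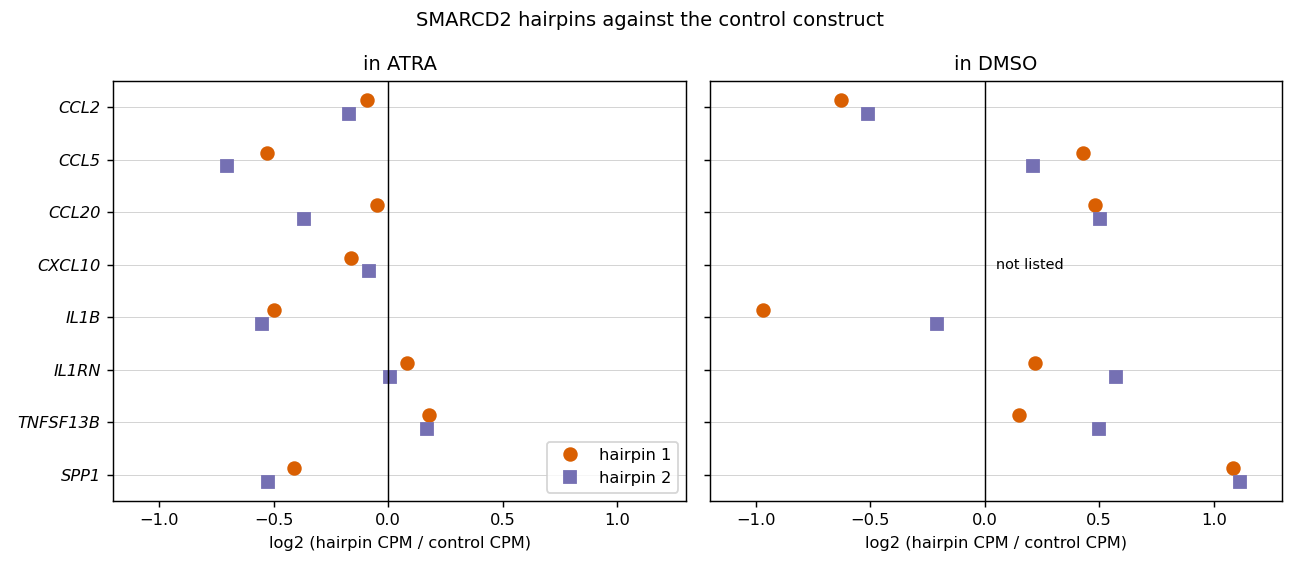
Level with each SMARCD2 hairpin relative to the control construct (log2 ratio of CPM, 1 library against 1 library) for each member in ATRA (left) and in DMSO (right), circles for hairpin 1 and squares for hairpin 2. CCL5, CCL20 and SPP1 lie left of 0 in ATRA and right of 0 in DMSO with both hairpins, and CXCL10 has no DMSO value.

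CCL5 in ATRA had log2 ratios to the control of −0.53 with hairpin 1 and −0.71 with hairpin 2. The fitted log2 fold change was −0.61 ± 0.11 (SE, edgeR adjusted p = 0.195), so the difference did not pass the threshold, although the 2 hairpins were nearer to each other than to the control. DESeq2 called it (adjusted p = 8.4e-05, with 0.322% of genes called lower) and limma-voom did not (0.244). With the construct as a block edgeR called it too (adjusted p = 1.11e-04), among 199 genes (1.62%) lower and 149 (1.21%) higher, but that fit takes out the spread between hairpins and can understate the error. In DMSO the log2 ratios were 0.43 and 0.21, with a fitted value of 0.32 ± 0.11 (edgeR adjusted p = 0.646, and 0.0305 with the construct as a block, among 85 genes, 0.691%, called higher).

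SPP1 in ATRA had log2 ratios to the control of −0.41 with hairpin 1 and −0.52 with hairpin 2, and a fitted value of −0.47 ± 0.07 (edgeR adjusted p = 0.159, limma-voom 0.134, DESeq2 0.00722, and 0.00159 with the construct as a block). In DMSO the ratios were 1.08 and 1.11, with a fitted value of 1.10 ± 0.15 (edgeR adjusted p = 0.179, limma-voom 0.69, DESeq2 1.56e-04 with 0.288% of genes called higher, and 0.00234 with the construct as a block). The DMSO difference rests on 307 and 228 counts with the hairpins and 74 with the control. The exact Poisson 95% intervals were 4.54 to 5.70 CPM with hairpin 1, 4.54 to 5.92 CPM with hairpin 2 and 1.89 to 3.01 CPM with the control, so the hairpin intervals did not overlap that of the control in counting error. Within run 1 alone the DMSO difference was 1.14 and within run 2 alone 1.00, and in ATRA −0.46 and −0.42, so the sign and size held within each run.

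The remaining members differed less from the control or on fewer counts. IL1B in ATRA stood at −0.50 and −0.55 with hairpins 1 and 2 (fitted −0.52 ± 0.17, edgeR adjusted p = 0.382, and 0.0702 with the construct as a block). CCL20 in ATRA stood at −0.05 and −0.37 and was fitted at −0.20 ± 0.16 (edgeR adjusted p = 0.685), and in DMSO at 0.48 and 0.50 (fitted 0.49 ± 0.18, edgeR adjusted p = 0.702). Without hairpin 1 in ATRA the CCL20 value was −0.37 and without hairpin 2 it was −0.05, so its size there differed between the hairpins.

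TNFSF13B stood at 0.18 and 0.17 in ATRA (fitted 0.17 ± 0.11, edgeR adjusted p = 0.621) and at 0.15 and 0.50 in DMSO (0.33 ± 0.14, adjusted p = 0.717). CCL2 stood at −0.09 and −0.17 in ATRA (−0.13 ± 0.06, edgeR adjusted p = 0.507), and CXCL10, fitted on the ATRA table alone, at −0.16 and −0.09 (−0.13 ± 0.09, adjusted p = 0.63, with 0.00779% of genes called). IL1RN stood at 0.08 and 0.007 in ATRA (fitted 0.05 ± 0.38, edgeR adjusted p = 0.976) and at 0.22 and 0.57 in DMSO (0.40 ± 0.25, adjusted p = 0.778). CCL2 and IL1B in DMSO, with 13 to 19 counts per library, were fitted at −0.57 ± 0.34 and −0.59 ± 0.45 (edgeR adjusted p = 0.807 and 0.817) and were not called. The CCL2 value was −0.19 in run 1 alone and −1.44 in run 2 alone. The IL1B value was −0.64 in run 1 alone and −0.15 in run 2 alone, and it was −0.19 without hairpin 1 and −0.95 without hairpin 2 in DMSO.

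The authors' deposited table, which gives its own shrunken log2 fold changes and a test that may have taken sequencing runs as samples, lists knockdown against control in ATRA at −0.54 for CCL5 (adjusted p = 5.7e-11), −0.39 for SPP1 (7.78e-06) and −0.34 for IL1B (0.0316). In DMSO the authors' deposited table lists 0.26 for CCL5 (adjusted p = 0.0183) and 0.38 for SPP1 (0.00572). The other members have an adjusted p over 0.05 or none in the authors' deposited table, which has 2.28% of genes lower and 2.14% higher in ATRA, and 0.365% lower and 0.903% higher in DMSO, at that threshold.

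The difference in ATRA response asked whether the change under ATRA was itself altered by knockdown. edgeR called 6 of 12301 genes (0.0488%), all 6 with a lower response in knockdown, and 979 genes (7.96%) had an unadjusted p under 0.05. SPP1 was 1 of the 6: its log2 response was 1.56 lower with the hairpins than with the control (−1.56 ± 0.16, adjusted p = 0.0439). The call was narrow. Without hairpin 1 in ATRA the adjusted p was 0.128 (−1.62), without hairpin 2 in ATRA 0.175 (−1.52), without hairpin 1 in DMSO 0.0522 (−1.60) and without hairpin 2 in DMSO 0.0821 (−1.56), and it was 0.334 with limma-voom, 0.0714 in run 1 alone and 0.0892 in run 2 alone. The value itself stayed between −1.62 and −1.42 across these settings, and its adjusted p was 4e-08 with DESeq2 (0.463% of genes called lower) and 1.7e-04 with the construct as a block (0.919% called lower).

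The other 5 genes called in that test were ENO2 (−2.32 ± 0.15), a glycolytic enzyme, ADM (−1.50 ± 0.14), a vasodilator peptide, PFKFB4 (−1.30 ± 0.11), a regulator of glycolysis, BNIP3 (−1.10 ± 0.12), a mitophagy receptor, and GBE1 (−0.92 ± 0.10), the glycogen branching enzyme. Each lay below the control in ATRA and above it in DMSO with both hairpins, as SPP1 did. ENO2, for example, stood in ATRA at 11.7 and 10.3 CPM with the hairpins, against 35.5 with the control, and in DMSO at 40.6 and 40.0 CPM, against 26.0.

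CCL5 had a difference of −0.94 ± 0.15 (edgeR adjusted p = 0.15), the 26th smallest p of the 12301 genes where that of SPP1 was the 4th, and did not pass the threshold. It was called with DESeq2 (adjusted p = 3.95e-06) and with the construct as a block (7.23e-05). CCL20 had −0.69 ± 0.24 (edgeR adjusted p = 0.579), CCL2 0.44 ± 0.34 (0.822), IL1RN −0.36 ± 0.46 (0.873), TNFSF13B −0.15 ± 0.18 (0.863) and IL1B 0.06 ± 0.44 (0.982). For these 5 members no difference in response was called.

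**Figure D4:**
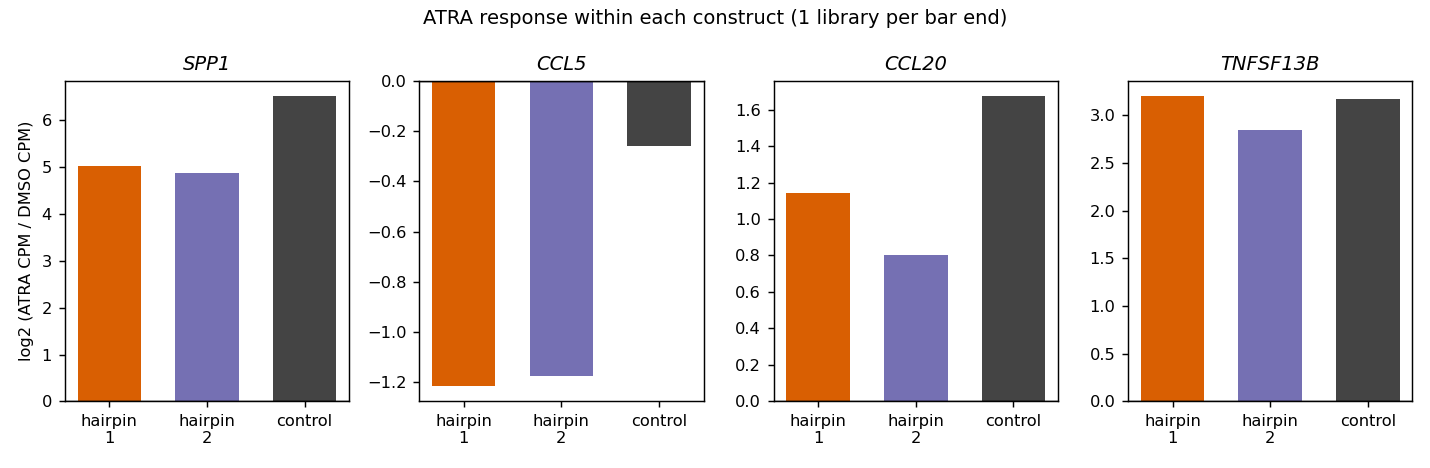
ATRA response, as the log2 ratio of CPM in ATRA over CPM in DMSO, within hairpin 1, hairpin 2 and the control construct for SPP1, CCL5, CCL20 and TNFSF13B, each bar being 1 library against 1 library, with no error bar and a separate range per panel. For SPP1 the control rises 91.5-fold and the hairpins 32.4-fold and 29.4-fold, for CCL5 the hairpins are further below 0 than the control, and for TNFSF13B the 3 constructs are close.

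Markers that shifted beside these differences were those of the neutrophil lineage. In ATRA both hairpins lay above the control for 6 of 7 promyelocyte and neutrophil markers, against 39.2% of all genes, and none of the 7 was called by edgeR. Their summed level was 6245 and 6830 CPM with the hairpins, against 5148 CPM with the control, and PRTN3 stood at 349 and 411 CPM, against 232 CPM (0.71 ± 0.17, edgeR adjusted p = 0.323). In DMSO the sums were 10492 and 10455 CPM with the hairpins, against 10255 CPM with the control. The summed monocyte and macrophage markers were 358 and 360 CPM with the hairpins, against 361 CPM with the control, in ATRA, and lay between 358 and 387 CPM in the 3 DMSO libraries. The part of these markers in the SPP1 and CCL5 values was not tested.

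Of 88 tested genes in the receptor list and the 5 further pathway lists, edgeR called none for knockdown against control in either treatment. Of these 88, 14 in ATRA and 14 in DMSO had an unadjusted edgeR p under 0.05, against 10.8% and 7.06% of all genes. limma-voom called none of them either. In ATRA DESeq2 called JUN, NFKBIZ and VEGFA lower, against 0.322% of all genes. With the construct as a block edgeR called those 3 and JUND lower and HGF and ITGA4 higher, against 1.62% lower and 1.21% higher over all genes. In DMSO DESeq2 called none, with 10 at an unadjusted p under 0.05, a count for which no share over all genes is given. With the construct as a block edgeR called 5 higher, namely CD44, HGF, IRF7, IRF8 and TNFAIP3, against 0.691% higher over all genes. In ATRA both hairpins lay below the control for 17 of 30 NF-kB and AP-1 genes and above it for 5 (37.4% below and 39.2% above over all genes), with JUN at 19.3 and 18.9 CPM, against 29.9 CPM (−0.65 ± 0.12, edgeR adjusted p = 0.235). In DMSO both lay above for 13 of those 30 and below for 5, with FOS at 5.39 and 5.61 CPM, against 3.12 CPM (0.82 ± 0.19, adjusted p = 0.45), and above for 9 of 12 IRF and STAT genes with none below (34.7% above and 35.1% below over all genes). VEGFA, the angiogenic factor, stood in ATRA at 214 and 185 CPM with the hairpins, against 299 CPM (−0.59 ± 0.09, edgeR adjusted p = 0.169), and HGF, the growth factor of hepatocytes and other epithelia, in DMSO at 59.2 and 99.4 CPM, against 24.5 CPM (1.69 ± 0.30, adjusted p = 0.307). Among receptors, CCR2 stood in ATRA at 1.17 and 1.85 CPM, against 0.673 CPM (1.15 ± 0.46, edgeR adjusted p = 0.433).

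Hairpin 2 against hairpin 1 showed how far the 2 knockdown constructs differed from each other over both treatments. edgeR called 160 genes higher (1.3%) and 90 lower (0.732%) with hairpin 2, and no member among them. CCL5 came nearest, at −0.19 ± 0.06 (edgeR adjusted p = 0.0772), and was called with limma-voom (adjusted p = 0.0153, with 1.42% of genes called lower). SPP1 differed by −0.07 ± 0.07 (edgeR adjusted p = 0.811), while SMARCD2 itself was among the genes called lower.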

How the data were processed

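The data were counts per gene from RNA-seq of NB4 cells, in 6 libraries. A GeneJET kit served for RNA and a NEBNext Ultra kit for libraries, per the labels' protocols. The submitters' processing notes name the build GRCh37.p13 and the tools STAR, bcl2fastq, DESeq2 and Picard 2.5.0, with roles not stated. No source used here gives the counting of reads per gene, its strand setting or the filter on low genes. The authors deposited 1 table per treatment (12838 genes in ATRA, 12752 in DMSO, 12301 in both) with 2 raw count columns per library, taken as sequencing runs. The deposited tables also hold normalized signal (counts over a size factor), and scores (standard errors and test statistics), neither of which was used. The authors' log2 fold change and p-value for knockdown against control, named per the file headers, are quoted as theirs.

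Run columns were summed per library, so runs never served as replicates, and the 10 most abundant genes took 4.66% to 5.67% of a library. R 4.3.3 with edgeR 4.0.16 (filterByExpr by group, TMM, quasi-likelihood test, Benjamini-Hochberg threshold 0.05) gave the main values, and limma 3.58.1 and DESeq2 1.42.0 gave alternatives. Python 3.11.15 with pandas 2.3.3, scipy 1.17.1 and matplotlib 3.10.9 made the summaries. Treatments were deposited in separate raw count tables, and comparisons across them used shared genes with full table totals as library sizes. The fit by group had 4 groups and 2 residual degrees of freedom, all from the spread between hairpins, and each lone control library was taken to vary as they do. The ATRA response over the constructs had knockdown state and treatment as terms, and CXCL10 was fitted on the ATRA table alone. A standard error is the size of the log2 fold change over the square root of F. The scripts were tested on simulated data.

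The same hairpins appear in both treatments, which gives the pairing for a fit with the construct as a replicate block. The difference between hairpins in ATRA correlated with that in DMSO with r = 0.26 across 9467 genes averaging 10 CPM or more, which are not independent replicates. Whether both libraries of a hairpin share 1 transduced culture is not stated in the labels.

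All members are named. From each other list the 3 genes with the largest called change and a mean of at least 1 CPM are named for ATRA against DMSO, with all receptors tested, and at most 2 per list with both hairpins on 1 side of the control for the knockdown comparisons. The members and lists were chosen with earlier results of these data known.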

Additional observations from a re-analysis of the deposited data

Results flagged for a closer look

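SPP1 had a knockdown effect that differed between the treatments by a test of the difference itself (−1.56 on the log2 scale, edgeR adjusted p = 0.0439): with both hairpins it lay below the control in ATRA (−0.47 ± 0.07) and above it in DMSO (1.10 ± 0.15). Neither effect was called on its own (edgeR adjusted p = 0.159 in ATRA and 0.179 in DMSO). The difference was also not called with limma-voom (adjusted p = 0.334), in run 1 alone (0.0714), in run 2 alone (0.0892) or without any 1 hairpin library (0.0522 to 0.175). Its levels were 165 and 153 CPM with the hairpins against 220 CPM with the control in ATRA, and 5.09 and 5.20 CPM against 2.40 CPM in DMSO. CCL5 (difference −0.94, edgeR adjusted p = 0.15) and CCL20 (−0.69, edgeR adjusted p = 0.579) stand here because both hairpins moved below the control in ATRA and above it in DMSO. The difference was not called by edgeR for either, and both hairpins showed that pattern in 12.5% of all genes. CCL20 with hairpin 1 in ATRA was only slightly below the control (log2 ratio −0.05).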

How the results depend on the processing

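Calls for knockdown rest on 2 hairpin libraries and 1 control library per treatment, and their number moved with the fit. For knockdown against control in DMSO (0 genes by edgeR), DESeq2 gave 38, run 2 alone 3, the construct as a replicate block 116, and leaving out 1 library 0 to 21, the 21 being without hairpin 1 in DMSO. In ATRA (1 gene) the numbers were 52 with DESeq2, 7 with run 2 alone, 348 with the replicate block and 0 to 1 with 1 library left out. For the difference in ATRA response (6 genes) they were 48 with DESeq2, 2 with limma-voom, 129 with the replicate block and 1 to 2 with 1 hairpin library left out. Without a control library this difference cannot be fitted. For hairpin 2 against hairpin 1 (250 genes) they were 382 with DESeq2's size factors, 49 with DESeq2's test and 441 with limma-voom, and no fit without 1 library was run because no residual degree of freedom is left. Fitted on 1 table alone, DESeq2 gave 57 genes in ATRA and 20 in DMSO, where edgeR gave 1 and 0. Members reversed only where they were not called. These were IL1RN for knockdown in DMSO in run 2 (−0.0082) and in ATRA in run 1 (−0.2205). For the difference in response they were IL1B in run 2 (−0.3241) and without hairpin 1 in DMSO (−0.3328 to 0.4245 with 1 library left out), IL1RN in run 2 (0.4931), TNFSF13B without hairpin 2 in DMSO (−0.341 to 0.0133), and SMARCD2 without hairpin 1 in ATRA (−0.2255) and without hairpin 2 in DMSO (−0.0056), over a range to 0.6137. IL1B between the hairpins reversed with limma-voom (−0.0095) and in run 2 (−0.0961). The cause was not tested. Of 588 values of members and SMARCD2 under alternatives, 547 kept direction and call, 24 gained a call (CCL5 also with run 2 alone for the difference in response, adjusted p = 0.0472, and with DESeq2's size factors between the hairpins, 0.0423), 7 lost one, all for the SPP1 difference, and 10 reversed. The replicate block changed no other call of a member than those given beside CCL5 and SPP1. Of 51 CPM values, scaling by total counts moved 3 by more than the spread of their group, IL1RN in ATRA to 0.818, 0.789 and 0.779.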
